A study of Homo sapiens with 2 samples.

Results

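Mitochondrial ribosomal protein genes were examined in cells of the established line A4573, from an Ewing sarcoma. Ewing sarcoma is a bone and soft tissue tumour driven by a fusion of EWSR1 with an ETS transcription factor gene, usually FLI1. The genes were taken by name, as every symbol of the array annotation that starts with MRPL or MRPS and a digit, with MRPL13 left out. This gave 79 of the 20046 genes with a named probe, measured by 114 of the 47323 probes. Of the 79, 75 code for proteins, and the other 4 are the pseudogenes MRPL42P5 and MRPS31P5 and the antisense RNAs MRPL20-AS1 and MRPL23-AS1. One group was the wild-type A4573 culture and the other was its radiation-adapted derivative, whose sample name carries 4 Gy. The labels give neither the schedule of irradiation, nor the time between the last dose and harvest, nor whether the adapted culture is a clone. Each group is 1 Illumina bead array of total RNA, so no test between groups is possible, and every difference below describes this pair of arrays.

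The mitochondrial ribosome translates the few messages of the mitochondrial genome, which code for core subunits of the respiratory chain and of ATP synthase. Its ribosomal RNAs are made inside the organelle, but all its proteins are coded in the nucleus, made in the cytosol and imported. Part of them descend from bacterial ribosomal proteins, and the rest are found in mitochondria only. The prefix of a symbol follows the subunit in most cases: MRPL proteins lie in the large subunit, which forms the peptide bond, and MRPS proteins in the small subunit, which reads the message. MRPS30 and MRPS18A are exceptions, since both sit in the large subunit of the human particle, and they are counted there.

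Probes with a detection p of at most 0.01 made up 37.8% of the wild-type array and 35.3% of the adapted array. All 5 Ewing sarcoma markers examined (CD99, FLI1, NKX2-2, STEAP1 and LIPI) were detected in both arrays. Of 9 markers of other cell types, CD14 and EPCAM were detected in both arrays and the other 7 in neither. CD14 read intensities of 166 and 159 in the wild-type and adapted arrays, close to the detection limit, and EPCAM read 224 and 280. Their part in the results was not tested.

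All 75 protein genes were detected in both arrays. Their intensities ran from 240 to 7300 with a median of 1030 in the wild-type array, and from 250 to 9217 with a median of 1421 in the adapted array. Before normalisation 70 of the 75 read higher in the adapted array, but the adapted array was brighter throughout this range. MRPL48, for example, went from 1246 to 1467 in intensity, while its normalised level was 10.28 on the log2 scale in both arrays. Differences are therefore given as normalised log2 adapted minus log2 wild-type, and a difference of 0.585 is 1.5-fold.

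Most mitoribosomal protein genes were somewhat higher in the adapted array, and few were lower. Of 75 genes, 62 (82.7%) had a difference above 0, against 53.2% of the 9840 genes detected in both arrays. Their differences centred on a median of 0.24 (quartiles 0.07 and 0.48), whereas all genes had a median of 0.04 and quartiles of -0.30 and 0.35. The shift was mainly one of many small differences: 11 genes (14.7%) were at least 1.5-fold higher, a share near the 12.2% of all genes, while 3 (4%) were at least 1.5-fold lower against 11.9% of all genes. A single gene was 2-fold or more higher and 0 were 2-fold or more lower. The shares of all genes past 2-fold are not given, so these counts have no background beside them. Among the 6792 genes whose mean level lay within the range of the mitoribosomal genes, the median was 0.02, with 11.5% higher and 12.1% lower. Scaling each array by its median in place of quantile normalisation moved the median of all genes to 0.20 and called 29 members higher and 1 lower, against 20.5% and 8.25% of all genes under that scaling. It also left 5 members below 0 in place of 13. Relative to that median of all genes, 15 members were higher and 2 lower. The share of all genes after that centring is not given, so these counts have no background beside them. Without background correction 9 members were higher and 1 lower, against 4.74% and 6.18% of all genes.

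**Figure D1:**
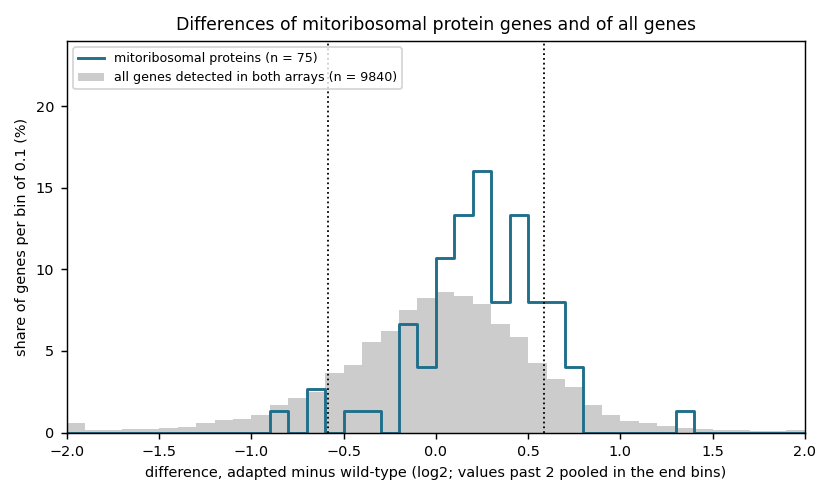
Share of genes in each bin of 0.1 on the log2 scale, for the difference between the adapted and the wild-type array; grey bars are the 9840 genes detected in both arrays, the blue outline is the 75 mitoribosomal protein genes, and dotted lines mark 1.5-fold. The blue outline is narrower than the grey bars and lies to the right of them, with medians of 0.24 and 0.04.

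The large subunit, with 49 genes, had a median difference of 0.29, with 43 genes above 0, 7 (14.3%) at least 1.5-fold higher and 2 lower. In the small subunit, with 26 genes, the median was 0.21, with 19 above 0, 4 (15.4%) higher and 1 lower. Both shares of higher genes lie near the 12.2% of all genes. Proteins of bacterial descent (45 genes) and proteins particular to mitochondria (30 genes) had medians of 0.25 and 0.22. In the former 9 (20.0%) were at least 1.5-fold higher and in the latter 2 (6.67%), again beside 12.2% of all genes. MRPL47 (0.16) was counted among the 30, although it is a homologue of a bacterial protein. Whether the subunits or the descent classes differ from each other was not tested.

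**Figure D2:**
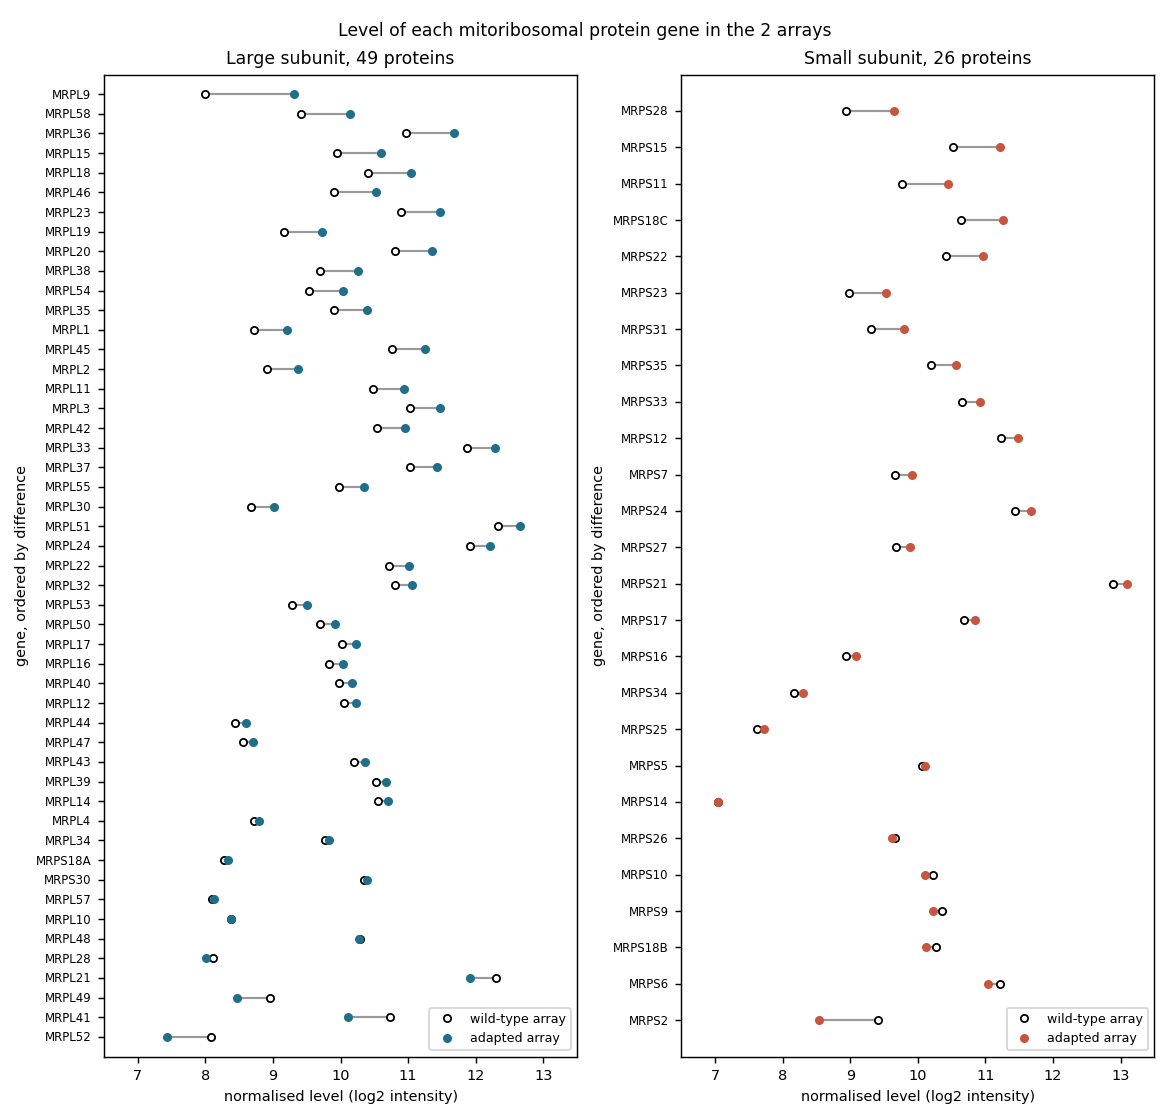
Normalised log2 intensity of the 49 large-subunit genes (left) and 26 small-subunit genes (right) in the wild-type array (open circles) and the adapted array (filled circles), 1 array each, ordered by the difference. Levels are to be compared along a row only, since each gene has its own probe; MRPL9 shows the longest line to the right and MRPS2 the longest to the left.

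MRPL9, a large-subunit protein of bacterial descent, stood apart from the other members. Its intensity went from 353 in the wild type to 798 in the adapted culture, a difference of 1.31, or 2.48-fold higher. One probe measures it, so no second probe is at hand to compare. The next member was MRPL58, once named ICT1, a peptidyl-tRNA hydrolase that frees stalled mitochondrial ribosomes and is itself part of the large subunit. It went from 743 to 1349, a difference of 0.72 (1.65-fold). MRPL36, the homologue of a small zinc-binding bacterial protein, went from 1947 to 3711, which is also 0.72 (1.64-fold). These 3 were the furthest above their wild-type level in the large subunit, and MRPL9 alone exceeded 2-fold.

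The other large-subunit genes past 1.5-fold were close to each other in size. MRPL15 read 1014 and 1799 in the wild-type and adapted arrays (0.64), and MRPL18 read 1341 and 2399 (0.64), both of bacterial descent. The 2 probes of MRPL18 gave 0.64 and 0.54. MRPL46, particular to mitochondria, read 983 and 1729 (0.63), and MRPL23, whose bacterial homologue lies at the exit of the peptide tunnel, read 1837 and 3215 (0.59). MRPL23 was just inside 1.5-fold, and MRPL19 (0.56), MRPL20 (0.55) and MRPL38 (0.55) were just outside it. The second probe of MRPL20 gave 0.18.

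In the small subunit the highest member was MRPS28, assigned in the human particle to the place of a bacterial RNA-binding protein, with 567 in the wild-type and 985 in the adapted array (0.71, or 1.63-fold). MRPS15 went from 1448 to 2702 (0.69) and MRPS11 from 907 to 1647 (0.68), and both are of bacterial descent. The second probe of MRPS11 gave 0.43, under 1.5-fold. MRPS18C went from 1554 to 2783 (0.62). It belongs to a family of 3 genes that descend from a single bacterial protein, and its relatives read nearer to 0: MRPS18B went from 1239 to 1334 (-0.15, but 0.13 with median scaling and 0.04 with the mean over its probes) and MRPS18A, in the large subunit, from 398 to 460 (0.06).

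Lower members were few. MRPS2, a small-subunit protein of bacterial descent, went from 740 in the wild type to 513 in the adapted culture, a difference of -0.88, or 1.84-fold lower. MRPL52 went from 365 to 294 (-0.65) and MRPL41 from 1649 to 1320 (-0.63), and both are large-subunit proteins particular to mitochondria. Without background correction MRPL52 (-0.43) and MRPL41 (-0.579) were under 1.5-fold. MRPL49 (-0.50) and MRPL21 (-0.38) were the only others below -0.2. In all, 13 members were below 0, 10 of them by less than 1.5-fold, and with median scaling 8 of the 13 were above 0, among them MRPL28 (-0.11 and 0.08) and MRPS14 (-0.00 and 0.10). MRPS25 (0.09), read at 299 and 336, was likewise near 0, whereas MRPL33 (3495 and 5453) and MRPL51 (4921 and 7029) had differences of 0.41 and 0.32.

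Promoters were read from the RefSeq table (GRCh38.p14) for 68 of the protein genes, in windows from 250 bases before to 50 after the start. Those below belong to members at the ends of the range and were chosen after the values were seen: 5 members at least 1.5-fold higher, MRPL9, MRPL36, MRPL58, MRPS18C and MRPL46, and the lowest member, MRPS2. Each runs 5′ to 3′ on the strand of its gene and stops 30 bases after the start. Capitals mark the motifs searched, on both strands: an NRF1-type motif and a YY1-type motif, whose letters are the first and the second run of capitals in MRPL36 (any base may stand before the first T of the NRF1-type motif), and the ETS/GABPA-type motif CCGGAAG, which reads CTTCCGG on the opposite strand. No motif overlaps another in these windows. The windows are chr1:151763467-151763746 (minus strand) for MRPL9, chr5:1799808-1800087 (minus) for MRPL36, chr17:75012420-75012699 (plus) for MRPL58, chr4:83455808-83456087 (plus) for MRPS18C, chr15:88467359-88467638 (minus) for MRPL46 and chr9:135499715-135499994 (plus) for MRPS2.
MRPL9: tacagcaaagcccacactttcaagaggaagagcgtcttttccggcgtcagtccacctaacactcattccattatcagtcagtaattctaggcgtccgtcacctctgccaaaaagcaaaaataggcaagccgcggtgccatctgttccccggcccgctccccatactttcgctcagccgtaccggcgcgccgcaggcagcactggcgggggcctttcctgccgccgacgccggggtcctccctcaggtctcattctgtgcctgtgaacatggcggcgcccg
MRPL36: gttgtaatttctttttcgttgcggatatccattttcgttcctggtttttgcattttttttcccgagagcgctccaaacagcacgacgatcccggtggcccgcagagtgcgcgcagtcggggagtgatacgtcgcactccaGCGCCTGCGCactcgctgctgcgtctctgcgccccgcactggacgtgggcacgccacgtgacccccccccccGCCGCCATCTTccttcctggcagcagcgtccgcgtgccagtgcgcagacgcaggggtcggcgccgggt
MRPL58: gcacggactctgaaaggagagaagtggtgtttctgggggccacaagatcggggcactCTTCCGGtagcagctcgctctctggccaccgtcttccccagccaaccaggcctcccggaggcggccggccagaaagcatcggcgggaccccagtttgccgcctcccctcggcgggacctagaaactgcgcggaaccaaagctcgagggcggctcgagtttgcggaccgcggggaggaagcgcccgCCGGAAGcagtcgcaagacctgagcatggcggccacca
MRPS18C: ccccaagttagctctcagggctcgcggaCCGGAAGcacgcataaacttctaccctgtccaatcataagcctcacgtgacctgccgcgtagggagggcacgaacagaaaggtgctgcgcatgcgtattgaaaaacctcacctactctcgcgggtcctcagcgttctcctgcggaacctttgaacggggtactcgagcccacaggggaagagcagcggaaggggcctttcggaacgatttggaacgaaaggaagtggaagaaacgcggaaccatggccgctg
MRPL46: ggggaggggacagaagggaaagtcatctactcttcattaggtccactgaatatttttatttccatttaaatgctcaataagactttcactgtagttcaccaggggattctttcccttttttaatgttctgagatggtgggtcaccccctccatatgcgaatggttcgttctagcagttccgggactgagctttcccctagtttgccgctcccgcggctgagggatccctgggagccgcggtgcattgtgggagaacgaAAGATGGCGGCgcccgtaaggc
MRPS2: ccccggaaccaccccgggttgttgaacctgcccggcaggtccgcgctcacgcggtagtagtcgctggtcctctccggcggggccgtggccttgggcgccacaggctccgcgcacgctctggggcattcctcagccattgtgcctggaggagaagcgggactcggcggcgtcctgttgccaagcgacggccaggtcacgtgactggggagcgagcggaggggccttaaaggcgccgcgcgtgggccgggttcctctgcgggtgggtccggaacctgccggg

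The NRF1-type motif stood at -110 and the YY1-type motif at -38 in MRPL36, with the start as 0. The ETS/GABPA-type motif stood at -193 and -8 in MRPL58 and at -222 in MRPS18C, and the YY1-type motif at 8 in MRPL46. MRPL9 and MRPS2 held none of these letters in the window shown. GABPA and NRF1 are known regulators of genes for mitochondrial proteins, and YY1 binds near the start of many such genes. Of 84 member windows, 38.1% held the ETS/GABPA-type motif, against 10.3% of all 35116 windows and 17.3% of the windows of genes detected in both arrays. The YY1-type motif was in 11.9% of member windows, 0.849% of all windows and 1.79% of those of detected genes, and the NRF1-type motif in 11.9%, 5.78% and 10.6%. The 29 genes with the ETS/GABPA-type motif had a median difference of 0.26 and those without it of 0.21. For the YY1-type motif the medians were 0.23 with it (10 genes) and 0.22 without. For the NRF1-type motif they were 0.20 with it (9 genes) and 0.23 without. Whether members with and without a motif differ was not tested.

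By place in the particle, members with one role did not all read alike. For the stalk that recruits translation factors, MRPL11 at its base had a difference of 0.46, MRPL12 of 0.18 and MRPL10 of 0.00. MRPL2 (0.47), MRPL3 (0.44) and MRPL16 (0.20) are homologues of bacterial proteins near the site of peptide bond formation. Around the tunnel exit, besides MRPL23, were MRPL22 (0.29), MRPL24 (0.30) and MRPL45 (0.47), a protein that holds the ribosome at the inner membrane. In the small subunit, MRPS12, the homologue of the bacterial protein at the decoding site, read 0.26, and MRPS7 (0.25), MRPS9 (-0.14) and MRPS10 (-0.11), all of bacterial descent, lay on both sides of 0, although MRPS9 and MRPS10 were above 0 with median scaling. MRPS22, MRPS23 and MRPS31, particular to mitochondria, read 0.56, 0.55 and 0.48.

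Members with several detected probes give the only check on these values within the arrays. For 22 genes 2 probes were detected in both arrays, and the differences of the 2 brightest were apart by a median of 0.26 and at most by 0.54. The SD per probe was 0.21, against 0.28 over all 2326 genes with such pairs, and 28 of the 75 differences were smaller than 0.21 in size. This SD covers the probes and not the spread between cultures. The brightest probes had a median difference of 0.32 and the second probes of 0.24. In 15 of 22 genes both probes lay above the median of all genes, against 897 of the 2326 genes. In 5 genes the probes differed in sign: MRPL30 (0.35 and -0.17), MRPL47 (0.16 and -0.08), MRPS18B (-0.15 and 0.24), MRPS21 (0.21 and -0.13) and MRPS33 (0.28 and -0.27). For these 5 the direction is unsettled. They are 22.7% of the 22 genes, beside 24.9% of the 2326 genes.

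**Figure D3:**
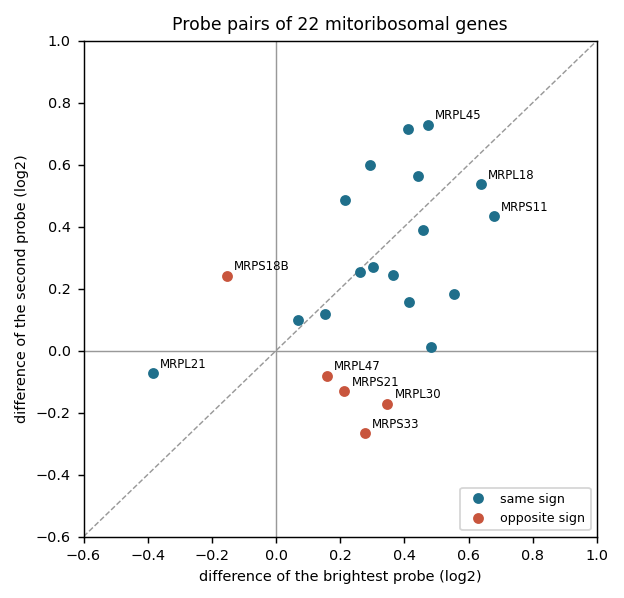
Difference between the adapted and the wild-type array (log2) for the brightest probe (horizontal) and the second probe (vertical) of 22 mitoribosomal genes with 2 probes detected in both arrays; the dashed line marks equal values. Red points are the 5 genes whose probes differ in sign, and MRPL21 is the one gene below 0 by both probes.

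A few probes behaved unlike the main probe of their gene. MRPL57, once named MRP63, read 368 and 411 by its main probe (0.02), whereas its second probe was detected in the adapted array alone, at 138 and 168. MRPL55 read 1028 and 1529 (0.37), and another of its probes was detected in the wild-type array alone, at 154 and 132, so that the mean over its probes was -0.04. Genes read by a single probe near background carry less signal: the pseudogenes MRPL42P5 (167 and 176) and MRPS31P5 (159 and 170) had differences of 0.18 and 0.29. They resemble their parent genes in sequence, so a probe may not tell them apart. MRPL20-AS1 read 1075 and 1457 (0.22), and MRPL23-AS1 was not detected in either array.

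The members lie on 21 chromosomes, and the lowest ones shared chromosomes that were low as a whole. Of the 5 lowest members, MRPS2 and MRPL41 lie on chromosome 9 and MRPL49 and MRPL21 on chromosome 11. All genes of chromosome 11 had a median difference of -0.29 and all genes of chromosome 9 of -0.15. The 20 measured genes nearest to MRPS2 had a median of -0.43, with 8 at least 1.5-fold lower and 0 higher. For MRPL41 (12 neighbours), MRPL49 and MRPL21 the neighbours' medians were -0.37, -0.47 and -0.38. MRPL52, on chromosome 14, had neighbours with a median of 0.09. Outside chromosomes 9 and 11, 57 of 65 members (87.7%) were above 0, with 10 higher and 1 lower. Of all 8861 genes there, 55.7% were above 0, with 1157 higher and 927 lower. Leaving out chromosomes 9 and 11 removes 10 members, among them MRPS2, MRPL41, MRPL49 and MRPL21. The rise in the members' share above 0 from 82.7% to 87.7%, and the drop in lower members, therefore follow from that choice. The gap to all genes was also present with these chromosomes kept, at 82.7% against 53.2% above 0. On chromosomes 9 and 11 themselves, 5 of 10 members were above 0, against 293 of all 976 genes there. The medians there were 0.10 for the members and -0.25 for all genes. What part the chromosome has in these differences was not tested, and this look at chromosomes was added after the values had been seen.

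**Figure D4:**
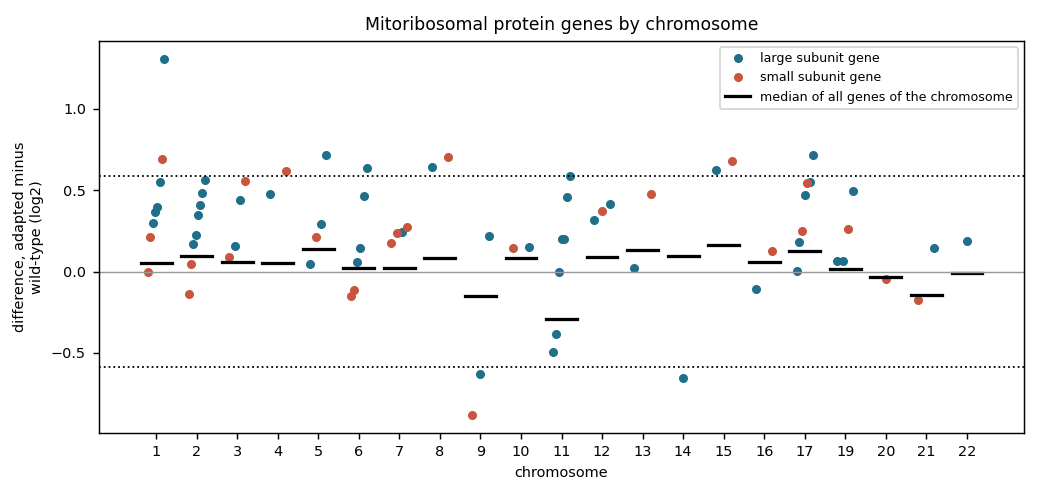
Difference between the adapted and the wild-type array (log2) of each mitoribosomal protein gene by chromosome, coloured by subunit; black bars are the medians of all genes of a chromosome detected in both arrays, and dotted lines mark 1.5-fold. Black bars are lowest for chromosomes 11 and 9, which hold 4 of the 5 lowest members.

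Higher members did not share one chromosome. MRPL9 and MRPS15 lie on chromosome 1, MRPL15 and MRPS28 on chromosome 8, and MRPS11 and MRPL46 on chromosome 15. The neighbours of MRPL9 had a median of 0.11 and those of MRPL58, on chromosome 17, of 0.06. Around MRPL36, on chromosome 5, the neighbours had a median of 0.46. MRPL23 was higher although its neighbours on chromosome 11 had a median of -0.33, with 8 of 20 at least 1.5-fold lower. Over all 75 members, 56 lay above the median of their neighbours. The same share over all genes is not given, and 82.7% of members were above 0.

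Several members share a promoter region with a gene that runs the other way. MRPL46 and MRPS11 are such a pair, with starts 320 bases apart, and both were higher (0.63 and 0.68). MRPS2 starts 96 bases from PIERCE1, which read -0.81, close to MRPS2 (-0.88), and -0.50 without background correction. MRPS18C (0.62) starts 175 bases from the helicase gene HELQ (0.47, and 0.19 without background correction). In other pairs the values were apart, as for MRPL57 (0.02) and the spindle gene SKA3 (1.24), which read only 160 in the wild type and 230 in the adapted culture and was under 1.5-fold without background correction (0.49). Others were MRPL54 (0.50) and APBA3 (-0.53), and MRPS12 (0.26) and the mitochondrial seryl-tRNA synthetase SARS2 (0.01). Of 17 pairs with starts at most 1000 bases apart and both genes detected in both arrays, 13 had differences of the same sign. The same share over other gene pairs is not given, and 82.7% of members and 53.2% of all genes were above 0. What part a shared promoter has in these values was not tested.

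Genes that serve the mitochondrial ribosome without the name were set beside the members, and their counts are to be read against the 12.2% of all genes higher and 11.9% lower. The 5 proteins with other symbols that are part of the mitochondrial ribosome or bind it had a median of 0.02. Of these, 1 (20%) was higher, CHCHD1 (382 and 620, a difference of 0.70), and 0 were lower. GADD45GIP1 read 0.49, and DAP3, a GTP-binding small-subunit protein, read -0.31. OXA1L, which binds the ribosome but is not one of its proteins, read 0.02. PTCD3 read -0.05 by a probe detected in the wild-type array alone. Assembly factors and enzymes that modify the ribosomal RNA showed a median of 0.21 over 20 genes, of which 1 was at least 1.5-fold higher and 1 lower. The former was the methyltransferase TRMT61B (1.17) and the latter the endonuclease YBEY (-0.94). GTPBP10, a GTPase of large-subunit assembly, read 0.80 by a probe detected in the adapted array alone, so that its bound was under 1.5-fold.

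The 14 factors of mitochondrial translation had a median of 0.16, and 4 (28.6%) were higher and 0 lower, beside 12.2% and 11.9% of all genes. These were GUF1 (0.78), the messenger-binding protein LRPPRC (0.72), the formyltransferase MTFMT (0.71) and the initiation factor MTIF2 (0.71), whereas the elongation factor TUFM read 0.12. The mitochondrial aminoacyl-tRNA synthetases had 3 of 18 (16.7%) higher, namely MARS2 (0.74), VARS2 (0.62) and FARS2 (0.60), and 0 lower, with a median of 0.24. Mitochondrial transcription and RNA processing showed a median of 0.22 over 17 genes, 5 of them (29.4%) higher and 0 lower. TFAM, which packages mitochondrial DNA and activates its transcription, went from 617 to 1099 (0.73), and the elongation factor TEFM read 0.77. Without background correction the higher counts in these 3 lists were 2, 0 and 2, beside 4.74% of all genes.

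The 70 measured proteins of the cytosolic ribosome had a median difference of -0.03, with 28 above 0, and 4 (5.71%) were lower and 0 higher by 1.5-fold. Most were read near the top of the scale: 41 of the 70 had intensities over 20000 in each array, where the brightest probe read 28876 in the wild-type and 26963 in the adapted array. What part the limit of the scale has in these values was not tested. RPL37 (-1.17) and RPL13 (-1.12) were the lowest, but read -0.90 and -0.63 with the mean over their detected probes. Ribosomal protein genes have many processed copies, and a probe can read several of them. The nuclear-coded subunits of the respiratory chain and ATP synthase, the enzymes whose other subunits the mitochondrial ribosome makes, showed a median of 0.18 over 70 genes, 8 of them (11.4%) higher, a share near the 12.2% of all genes, and 2 lower (5 higher without background correction). The highest was ATP5MC1 (0.86) and the lowest NDUFV1 (-0.83). The 6 measured regulators of mitochondrial biogenesis had a median of -0.15, or 0.12 without a detection filter, with 0 higher and 1 lower, the nuclear receptor ESRRA (-0.74), while GABPA read -0.05 and YY1 0.24. Whether these lists differ from the members was not tested.

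**Figure D5:**
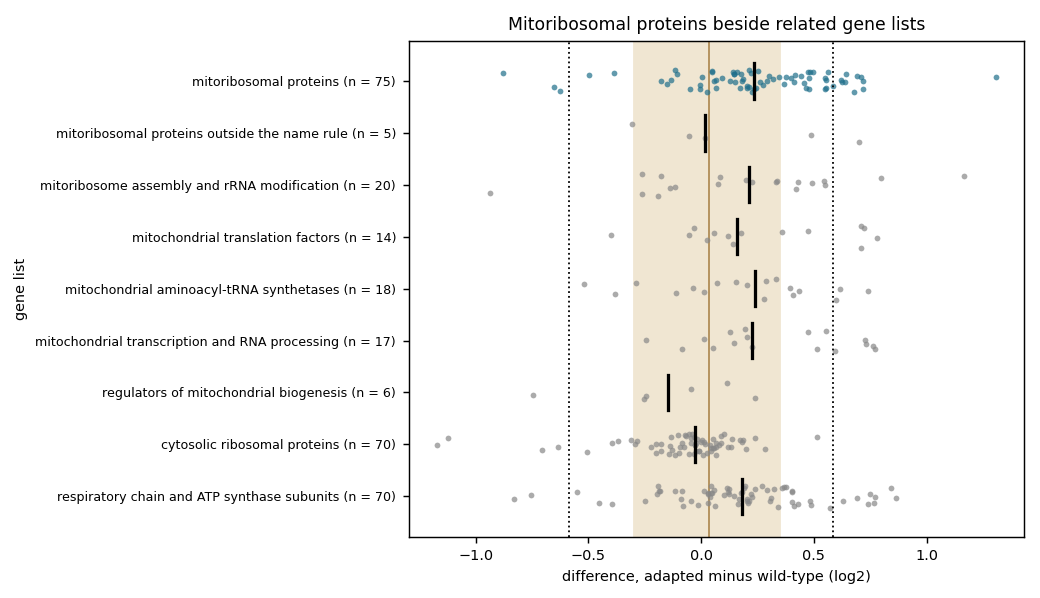
Difference between the adapted and the wild-type array (log2) of each gene in the mitoribosomal set (blue) and in 8 related lists (grey), with black bars at the list medians; the tan band spans the quartiles of all genes, the tan line is their median of 0.04, and dotted lines mark 1.5-fold. The medians are 0.24 for the mitoribosomal proteins, 0.18 for the respiratory chain and -0.03 for the cytosolic ribosomal proteins.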

How the data were processed

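Total RNA of both cultures was extracted with Trizol and labelled as biotin cRNA with the Illumina TotalPrep kit, per the labels. The authors deposited, per the file headers, an average bead intensity and a detection p-value for each probe of each array. The lowest intensities, 100 in the wild-type and 101.8 in the adapted array, lie far above 0, which is how values without background subtraction look. Whether a background step or an added constant came before cannot be told from them. The authors' deposited table of processed values has intensities on a linear scale, with a median of 10.6 in each array and 27.7% below 0 in each, which is how background-subtracted and quantile-normalised values look. No source used here states its processing. It served as an alternative.

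The intensities were corrected with limma's neqc (R 4.3.3, limma 3.58.1), which estimates background by means of the detection p, then applies an offset of 16, quantile normalisation and log2. The code was tested on simulated data. Probes were named from the platform annotation: 30113 had 1 symbol, 8 had several and 17202 were unnamed here. A gene was read by its brightest probe among those with a detection p of at most 0.01. Of 20046 genes, 11296 entered and 9840 were detected in both arrays by one probe. RefSeq supplied current symbols, chromosomes and gene order, and its promoter windows supplied the sequences. Tables and figures were made with Python 3.11.15, pandas 2.3.3 and matplotlib 3.10.9.

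With 1 array per group no p-value, SE or test between groups was computed, the number of arrays limits the precision, and a batch cannot be told apart from the group. Bead errors were not used here. A difference was called from 1.5-fold on, and 7 processing alternatives were tried. Members and lists were chosen with earlier results of these data known. Genes named are the members past 1.5-fold, the 5 highest and 5 lowest, the 5 brightest and 5 dimmest (a choice of names only), those whose probes differ in sign, those not detected, the MRPS18 family and renamed genes, and up to 4 genes of each list. Members described by place in the particle, genes just outside 1.5-fold, promoter partners and other genes named beyond this were chosen after their values were seen.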

Additional observations from a re-analysis of the deposited data

How the results depend on the processing

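The alternatives were no background correction, median scaling, the authors' processed values, an offset of 50, a detection p of at most 0.05, no detection filter and the mean over detected probes, 7 in all; median scaling relative to the median of all genes was added after seeing the data. Median scaling moved the most: the members' median went to 0.51, with 29 higher and 1 lower, the large subunit's median to 0.53 and the small subunit's to 0.47. The higher counts became 5 for the aminoacyl-tRNA synthetases, 8 for transcription and RNA processing, 8 for assembly, 16 for the respiratory chain and 1 for the cytosolic ribosome. The lower counts became 2 for the cytosolic ribosome and 0 for the respiratory chain and for the regulators. The medians became 0.39 for the translation factors and 0.24 for the list of mitoribosomal proteins outside the name rule, which holds OXA1L. The median of all genes moved to 0.20 with it, and 20.5% of all genes were higher and 8.25% lower. Relative to that median, the cytosolic ribosome had a median of -0.26, the synthetases 1 lower and assembly 2 higher. The share of all genes after that centring is not given. Without background correction 9 members were higher and 1 lower, beside 4.74% and 6.18% of all genes. The higher counts were then 0 for the synthetases, 0 for the proteins outside the name rule, 2 for transcription, 2 for translation factors and 5 for the respiratory chain. With an offset of 50 the synthetases had 1 higher and transcription 3, beside 8.50% of all genes. The authors' values gave 1 lower for the synthetases, 2 higher for the proteins outside the name rule and 3 higher for assembly. With these values 15.0% of all genes were higher and 14.1% lower. Assembly had 2 higher with the detection limit at 0.05 and also without a filter, beside 12.2% and 8.67% of all genes. Without a filter the cytosolic ribosome had 1 higher and the regulators a median of 0.12, opposite in sign to the -0.15 reported. The causes were not tested. MRPL23 and MRPL46 fell under 1.5-fold without background correction, MRPL23 and MRPL52 with an offset of 50, and MRPS11 with the mean over probes. Median scaling turned the sign of 8 members, all within 0.18 of 0, and the mean over probes that of MRPL55 and MRPS18B; the other 5 alternatives turned 0. No paired analysis was possible because each group has 1 array.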
